A study of Sus scrofa with 6 samples.

Results

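Heat shock proteins and chaperones help other proteins to fold, to assemble and to be cleared. In the cytosol, HSP70 proteins hold unfolded stretches in a cycle that J proteins (DNAJ) start and exchange factors (BAG and HSP110 proteins) end, HSP90 finishes signalling proteins such as steroid receptors, the ring-shaped chaperonin TRiC folds actin and tubulin, and small heat shock proteins (HSPB) keep damaged proteins from clumping. The endoplasmic reticulum (ER), through which secreted and membrane proteins pass, has its own HSP70 and HSP90, lectin chaperones and protein disulfide isomerases, which the unfolded protein response induces together, and mitochondria import most of their proteins unfolded and refold them with an HSP70 and a chaperonin of their own. The members described here are all probe sets of the porcine array whose single gene symbol starts with HSPA, HSPB, HSPD, HSPE, HSPH, HSP90, DNAJ or PDIA or is one of CCT2 to CCT8, TCP1, BAG1 to BAG6, CALR and CANX, and whose signal was above 50 on at least 3 of the 6 arrays. They are 103 probe sets for 59 genes, out of 19196 probe sets that met the same signal filter. By the known location of their products, 29 probe sets (13 genes) belong to the ER, 56 (32 genes) to the cytosol, 9 (6 genes) to mitochondria and 9 (8 genes) to the nucleus, vesicles, cilia or a place that was not assigned.

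The filter left out 1 of 104 probe sets and 1 of 60 genes, HSPB3, a small heat shock protein of muscle, whose signal lay between 22.9 and 46.1 on the 6 arrays. Just inside the filter were a second probe set of DNAJA4 (49.0 to 73.7), a second one of BAG5 (49.6 to 83.5) and a weak one of CANX (53.8 to 70.4). Where a gene had several probe sets, its brightest one was used unless another is named.

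The study compared preovulatory follicles of a highly prolific Chinese pig with those of a Western breed. RNA came from follicles over 5 mm of 3 Chinese Taihu sows, named Chinese Erhualian in the labels, and of 3 Large White sows, with 1 array for each sow. All sows had at least 2 parities and received 1000 IU PMSG, which drives follicle growth as FSH does, and 500 IU hCG 80 h later, which acts as LH and starts ovulation, and they were killed 30 to 38 h after hCG. The labels name a separate farm for each breed, and farm and breed cannot be told apart. Signals are normalized intensities on a linear scale brought to a common level, which hides the total RNA of a follicle, and in such whole-tissue RNA fewer cells of a type and less RNA per cell cannot be told apart. Signals are given for sows 1, 2 and 3 of a breed in that order. Log2 differences are given as the Chinese Taihu mean less the Large White mean.

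Apart from any chaperone, Chinese Taihu sow 1 differed from the other sows. Its array correlated with the others at r = 0.834 to 0.887, whereas each of the other arrays had a best match of at least 0.955. The granulosa marker INHA, a subunit of inhibin, had 446, 9602 and 8246 in the Chinese Taihu sows, against 6509.8, 9989 and 10684 in the Large White sows. Of the 10 granulosa markers measured, 5 were lowest in Chinese Taihu sow 1, INHA and FST among them, and 2 were highest there, CYP19A1 (aromatase) and INHBA, an activin and inhibin subunit that had 899, 294 and 233 in the Chinese Taihu sows, against 387, 299 and 339 in the Large White sows. The 7 theca and steroid markers were all lowest in Chinese Taihu sow 1, with a list level (median log2 signal over genes, each gene centred on its own median over the arrays) of -4.62 there, 2.02 and -0.52 in the other Chinese Taihu sows, and -0.20 to 1.17 in the Large White sows. All 11 surface and oviduct epithelium markers and all 5 cilium markers that passed the filter were highest in Chinese Taihu sow 1. Their list levels there were 3.95 and 4.36, against 1.14 and 1.53 in Large White sow 3 as the next highest. The oviduct marker OVGP1, given after its values were seen, had 11903.5, 147.6 and 167.2 in the Chinese Taihu sows, against 136, 116.2 and 2382 in the Large White sows. Large White sow 2 was highest in 8 of 10 leukocyte markers (list level 2.05, against -0.25 to 0.18 in all other sows). Endothelial list levels lay between -0.14 and 0.14 and oocyte levels between -0.30 and 0.37, and smooth muscle levels between -0.85 and 0.39. Of the 6 smooth muscle markers, 4 were highest in Chinese Taihu sow 1 and ACTA2 was lowest there, at 8013 against 8386 to 10610.0 in the other sows. CYP19A1 and the granulosa factor FOXL2 were at most 119 and 116 in any sow. The list level of the granulosa markers was -1.60, 0.19 and 0.08 in the Chinese Taihu sows, against 0.12, -0.11 and 0.03 in the Large White sows. Several values are therefore also given without Chinese Taihu sow 1.

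No chaperone passed an adjusted p of 0.05 between the breeds. limma with Benjamini-Hochberg adjustment over all 19196 probe sets called 0 of 103 members (smallest adjusted p 0.993), beside 4 probe sets of the whole array (0.0208%). At an unadjusted limma p of at most 0.05, 5 members (4.85%) passed, 2 higher and 3 lower in Chinese Taihu, beside 3.86% of all tested probe sets (1.56% higher, 2.3% lower). The 3 sows of one breed all lay above the 3 of the other in 13 members (12.6%), 6 higher and 7 lower in Chinese Taihu, beside 9.1% of all tested probe sets (3.98% higher, 5.12% lower). An exact permutation test of 3 against 3 sows cannot go below 0.1. The member log2 differences ran from -0.79 to 0.88 with a median of -0.03, and 48 were positive and 55 negative. Over all tested probe sets the median was 0.0019, with 9649 positive and 9547 negative. The shares of the members and of the array are set side by side without a test. Of the 5 unadjusted calls, only DNAJA2 kept a p of at most 0.05 with each sow left out in turn. DNAJB1 and BAG1 lost it without Chinese Taihu sow 2 or 3 or Large White sow 2 or 3, DNAJC9 without Chinese Taihu sow 2 or 3 or Large White sow 1, and the CANX probe set without Chinese Taihu sow 1 or 2 or Large White sow 1 or 3. The plot of all member probe sets by compartment shows how closely they gathered around 0.

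**Figure D1:**
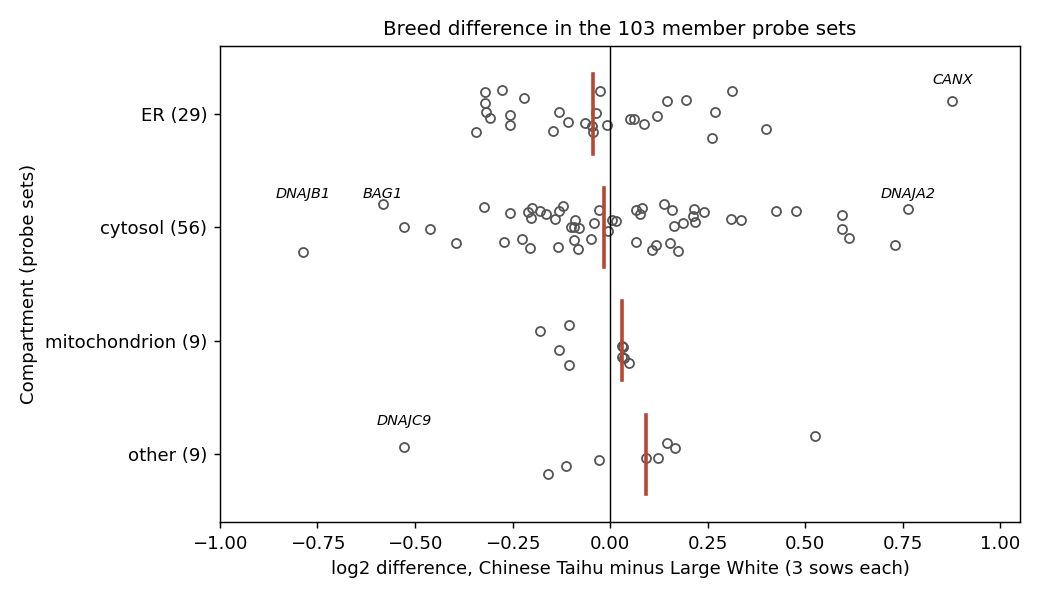
Fitted log2 difference (x axis, Chinese Taihu minus Large White, 3 sows each) of the 103 member probe sets, 1 point per probe set, in rows by compartment with a red line at the row's median. Most points lie close to 0, and the named points at the edges are DNAJA2 (0.76) and a weak CANX probe set (0.88) on the right and DNAJB1 (-0.79), BAG1 (-0.58) and DNAJC9 (-0.53) on the left.

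The ER chaperones as a group were lowest in 1 sow, Chinese Taihu sow 1, and the medians of ER and cytosolic genes between the breeds were slightly negative. Over the 13 ER genes the median log2 difference was -0.15, with 10 negative and 3 positive, and over all 29 ER probe sets it was -0.04, with 18 negative and 11 positive. Over the 32 cytosolic genes it was -0.08, with 21 negative and 11 positive, and over all 56 cytosolic probe sets -0.02. Over all 6322 tested genes the median was -0.04, with 3554 negative and 2768 positive. Without Chinese Taihu sow 1 the ER median was -0.07 and the cytosolic median -0.07. Without Large White sow 2 the ER median was -0.08 and the cytosolic median turned to 0.01. By sow, the list level of the ER genes was -0.29, 0.12 and -0.0014 in the Chinese Taihu sows, against 0.05, 0.21 and -0.06 in the Large White sows. The list level of the cytosolic genes was -0.03, -0.06 and -0.01 in the Chinese Taihu sows, against 0.02, 0.07 and -0.01 in the Large White sows. The ER level minus the cytosolic level was thus -0.26, 0.18 and 0.0090 in the Chinese Taihu sows and 0.03, 0.14 and -0.05 in the Large White sows, and the lowest and the highest value both came from Chinese Taihu sows. Chinese Taihu sow 1 was the lowest of the 6 in 8 of the 13 ER genes (61.5%, against 24.2% of all tested genes) and the highest in none of them. Over all 29 ER probe sets it was the lowest in 13 (44.8%, against 23.1% of all tested probe sets) and the highest in 2. These counts are described without a test. In the cytosol it was the highest in 11 of 32 genes (34.4%, against 23.6% of all tested genes). It is the sow with the highest epithelium and cilium levels and the lowest theca level, and the part of these in its ER and cytosolic levels was not tested.

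**Figure D2:**
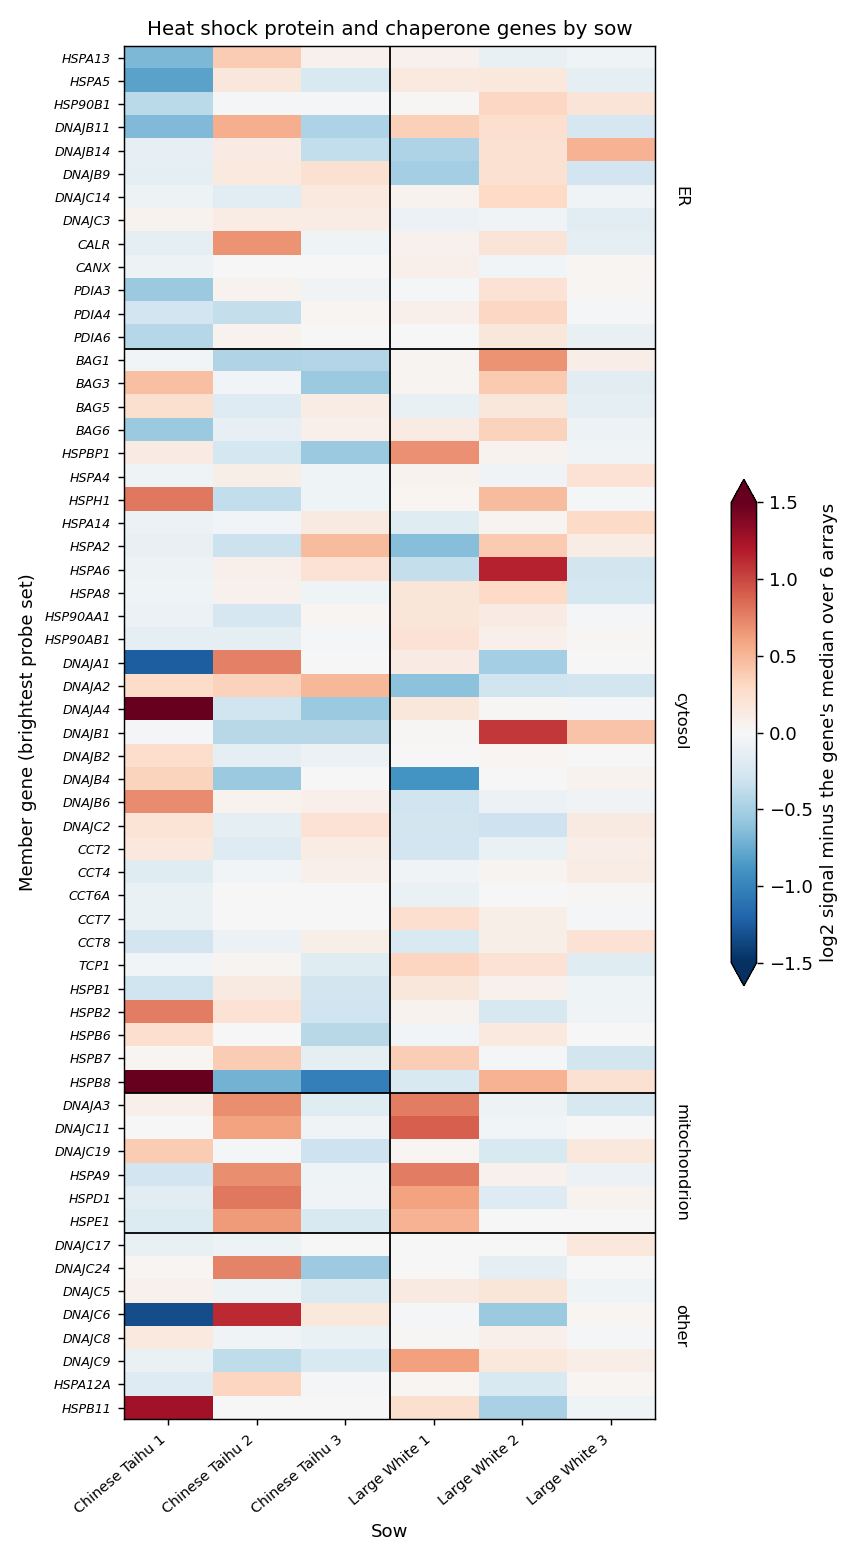
Log2 signal of the 59 member genes (rows, brightest probe set, grouped by compartment) in each sow (columns, Chinese Taihu left, Large White right), as the difference from the gene's median over the 6 arrays, with colours ending at 1.5 either way. Blue fills most ER rows of Chinese Taihu sow 1 (list level -0.29), and red marks most mitochondrial rows of Chinese Taihu sow 2 (0.67) and Large White sow 1 (0.69).

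Among the ER chaperones, HSPA5, the HSP70 of the ER lumen (BiP) and the usual readout of the unfolded protein response, measured 3711, 7306 and 5530.4 in the Chinese Taihu sows, against 7184, 7269.7 and 5879 in the Large White sows. The value of Chinese Taihu sow 1 was low and the breeds overlapped. The limma log2 difference was -0.34 (SE 0.26), and -0.09 without Chinese Taihu sow 1. HSPA13, a second HSP70-like protein of the ER, had 571, 1182 and 949 in the Chinese Taihu sows, against 949, 839.6 and 869 in the Large White sows, again with Chinese Taihu sow 1 lowest. Its log2 difference of -0.04 turned to 0.26 without Chinese Taihu sow 1. A second, weaker HSPA13 set had a log2 difference of 0.31 (SE 0.31), and 0.04 to 0.64 with any 1 sow left out. HSP90B1, the HSP90 of the ER (GRP94), had 2874, 3769 and 3731 in the Chinese Taihu sows, against 3843, 4725 and 4344 in the Large White sows. Its brightest probe set was lower in all 3 Chinese Taihu sows (log2 difference -0.32, SE 0.17), and -0.19 without Chinese Taihu sow 1. A second HSP90B1 probe set overlapped between the breeds, with 2913, 3379 and 3223 in the Chinese Taihu sows and 3258, 3676 and 3029 in the Large White sows.

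The protein disulfide isomerases form and reshuffle the disulfide bonds of secreted proteins. PDIA3, which works on glycoproteins held by calnexin and calreticulin, had 4322, 6554 and 6097 in the Chinese Taihu sows, against 6233, 7337 and 6431 in the Large White sows. PDIA4 had 2405, 2300.3 and 3002 in the Chinese Taihu sows, against 3088, 3638 and 2873 in the Large White sows. PDIA6, which can switch off the stress sensor IRE1, had 6179, 8666 and 8329.6 in the Chinese Taihu sows, against 8345, 9368 and 7723 in the Large White sows. Large White sow 2 was the highest in all 3 isomerases and Chinese Taihu sow 1 the lowest in PDIA3 and PDIA6, while Chinese Taihu sow 2 was the lowest in PDIA4. Their log2 differences were -0.26 (SE 0.19), -0.32 (SE 0.18) and -0.15 (SE 0.16), within the spread between sows. Without Chinese Taihu sow 1, that of PDIA3 was -0.07 and that of PDIA6 turned to 0.01. CALR, calreticulin, a soluble lectin chaperone that also stores calcium, had 1592, 2811 and 1688 in the Chinese Taihu sows, against 1832, 2014 and 1597 in the Large White sows, with Chinese Taihu sow 2 apart from the other 5. CANX, calnexin, its membrane-bound partner, was the steadiest ER gene when each was read by its brightest probe set. That CANX set had 3070.5, 3222 and 3235 in the Chinese Taihu sows, against 3394, 3128 and 3296 in the Large White sows.

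**Figure D3:**
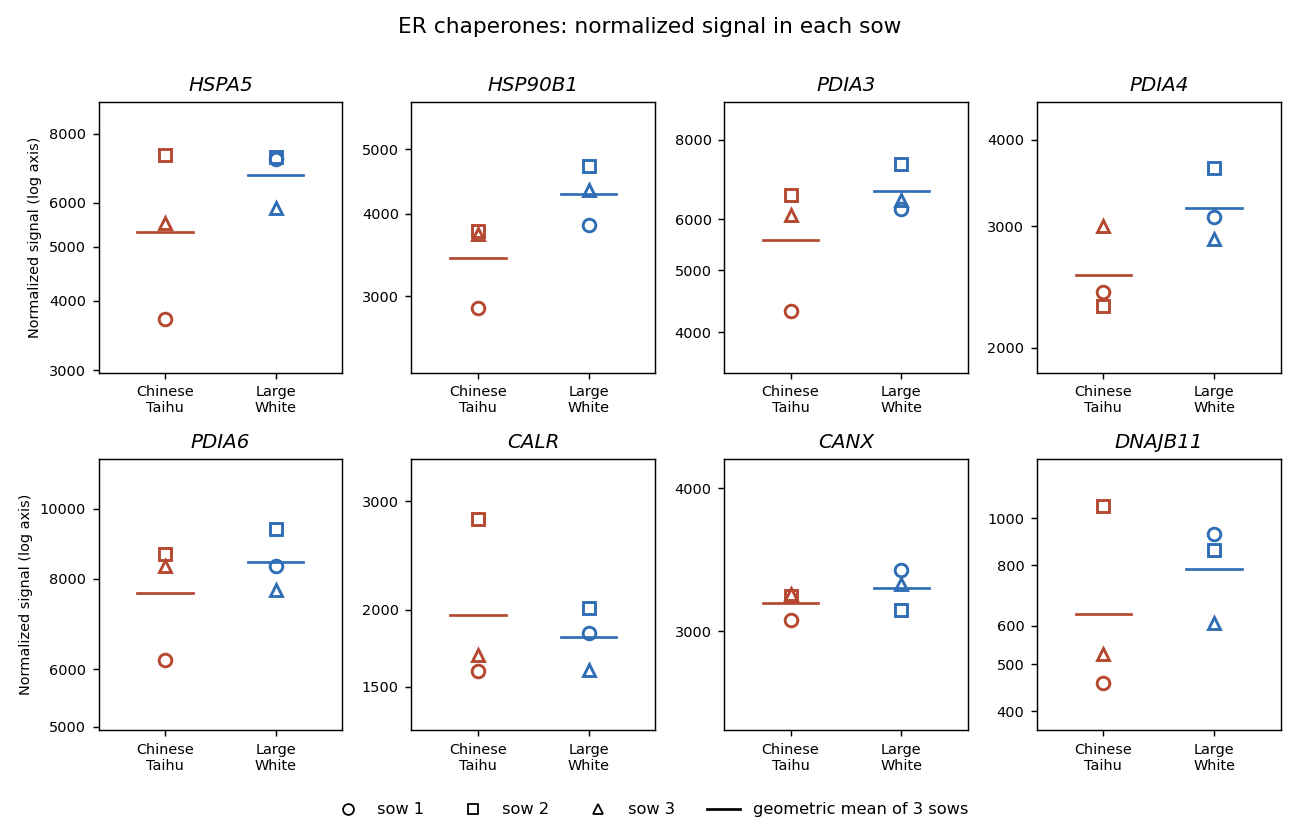
Normalized signal (y axis, log scale, a scale of its own in each panel) of 8 ER chaperones in each sow, Chinese Taihu left and Large White right, with a line at the geometric mean of 3 sows. Chinese Taihu sow 1 (circle) is the lowest point in 7 of the panels, for HSPA5 at 3711, and in PDIA4 sow 2 is lower. Over all 13 ER genes it is the lowest in 8, and DNAJB9, DNAJB14, DNAJC3 and DNAJC14, where it is not, have no panel.

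CANX was read by 6 probe sets, and they did not move alike, with log2 differences from -0.05 to 0.88. The one at 0.88 was weak, with 297, 213 and 131 in the Chinese Taihu sows, against 95.5, 144 and 97.1 in the Large White sows. It was highest in Chinese Taihu sow 1, and Chinese Taihu sow 3 lay below Large White sow 2, so the breeds overlapped. It passed limma's unadjusted threshold (SE 0.34), but not without Chinese Taihu sow 1, where the log2 difference was 0.60. Another CANX set had 1236, 1190.3 and 1059.9 in the Chinese Taihu sows, against 766, 997 and 889 in the Large White sows, all 3 Chinese Taihu sows being higher (log2 difference 0.40, SE 0.19).

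The 5 J proteins of the ER, given as a whole group after their values were seen, had log2 differences from -0.31 to 0.27, with 2 positive. DNAJB11, which brings unfolded proteins to HSPA5, varied most, with 457, 1058 and 526 in the Chinese Taihu sows, against 926, 858 and 608 in the Large White sows. DNAJB9, a J protein of ER degradation and a target of the stress factor XBP1, had 654, 796 and 849 in the Chinese Taihu sows, against 507, 843 and 590.2 in the Large White sows. Chinese Taihu sow 1 was the lowest for DNAJB11 but not for DNAJB9, for which Large White sow 1 was lowest. DNAJC3, an HSPA5 partner that also restrains the kinase PERK, had 261, 273 and 273 in the Chinese Taihu sows, against 238, 244 and 224 in the Large White sows. These do not overlap, though the whole range over the 6 sows was 1.22-fold. A second DNAJC3 set of similar signal did overlap. It had 253.7, 274.4 and 239.3 in the Chinese Taihu sows, against 214.9, 269.8 and 239.9 in the Large White sows (log2 difference 0.09, SE 0.17). DNAJC14 and DNAJB14, both anchored in the ER membrane, spanned 1.38-fold and 1.98-fold over the sows and overlapped between breeds.

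In the cytosol HSPA8 and both HSP90 genes varied little by their brightest probe sets. HSPA8, the everyday HSP70 (HSC70), had 5979.6, 6525 and 5986 in the Chinese Taihu sows, against 7093, 7698 and 5188 in the Large White sows by its brightest probe set. HSP90AA1, the stress-responsive HSP90, had 9663, 8609.7 and 10464 in the Chinese Taihu sows, against 11689, 11243 and 10119 in the Large White sows. HSP90AB1, the constitutive HSP90, had 6764, 6753 and 7339 in the Chinese Taihu sows, against 8626, 7878 and 7549.5 in the Large White sows. HSP90AB1 was lower in all 3 Chinese Taihu sows, while the brightest sets of HSP90AA1 and HSPA8 overlapped. The log2 differences of both HSP90 genes were -0.20 (SE 0.12 and 0.11), and neither passed limma's unadjusted threshold. The other 4 probe sets of HSP90AA1 were lower in mean in Chinese Taihu in 3 cases and higher in 1. They varied more than the brightest one, with ranges of 1.59-fold to 2.02-fold over the sows against 1.36-fold. A set of these without overlap had 3882, 3554 and 2125 in the Chinese Taihu sows, against 4189.7, 3896 and 4093 in the Large White sows. Its log2 difference was -0.40 (SE 0.25).

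HSPA8 had 3 weaker probe sets that did not follow its brightest one. The strongest of them had 983, 458 and 325 in the Chinese Taihu sows, against 391, 295 and 369 in the Large White sows. A second had 772, 313 and 265 in the Chinese Taihu sows, against 279.6, 198 and 253 in the Large White sows. All 3 were highest in Chinese Taihu sow 1, and with it left out the log2 differences of these sets were 0.14 and 0.26, against 0.59 (SE 0.42) and 0.73 (SE 0.42) with it.

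The inducible and tissue-specific HSP70 members overlapped between the breeds. HSPA6, a strictly heat-inducible HSP70, had 179, 199.5 and 219 in the Chinese Taihu sows, against 148, 421 and 156 in the Large White sows, and the value of Large White sow 2 was 1.92 times the next highest. HSPA2, best known from sperm formation, had 1008, 871 and 1508 in the Chinese Taihu sows, against 696, 1423 and 1169 in the Large White sows. HSPA14, an HSP70 bound to ribosomes, had 311, 321 and 364 in the Chinese Taihu sows, against 292, 341 and 405 in the Large White sows. HSPA2 and HSPA14 showed no sow apart. Of the HSP110 exchange factors, HSPH1, a strongly heat-inducible one, had 2800.2, 1258 and 1551 in the Chinese Taihu sows, against 1656, 2255 and 1594 in the Large White sows, with Chinese Taihu sow 1 at 1.24 times the next highest and a log2 difference of -0.04 that was -0.38 without it. HSPA4 had 483, 535 and 483 in the Chinese Taihu sows, against 522, 484 and 585 in the Large White sows. HSP70.2, an HSP70 gene whose symbol the rule does not match and which was added after its values were seen, was also highest in Chinese Taihu sow 1 and had 4139.7, 1912 and 2936 in the Chinese Taihu sows, against 2607, 2622 and 2594 in the Large White sows.

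The J proteins of the cytosol held both the highest and the lowest log2 difference of all brightest probe sets, and they varied more over the sows (median range 2.25-fold over 8 genes) than the 59 genes as a whole (1.70-fold). DNAJA2, a J protein that serves HSPA8 in refolding, had 922, 972 and 1077 in the Chinese Taihu sows, against 499.7, 624 and 634 in the Large White sows. All 3 Chinese Taihu sows were higher, and the means were 990.3 ± 79.0 in Chinese Taihu and 586 ± 74.8 in Large White (SD, n = 3 each). The log2 difference was 0.76 (SE 0.19), with the smallest limma p of all members, and it lay between 0.65 and 0.82 with any 1 sow left out. After adjustment over all probe sets it did not pass (limma, adjusted p = 0.993). DNAJB1, the heat-inducible J protein HSP40, had 737, 559.8 and 560.0 in the Chinese Taihu sows, against 758, 1553 and 1006 in the Large White sows. All 3 Chinese Taihu sows were lower, but Chinese Taihu sow 1 and Large White sow 1 differed by little. The log2 difference was -0.79 (SE 0.31, limma adjusted p = 0.993), and -0.51 without Large White sow 2, the sow with the highest leukocyte markers, whose part in the value was not tested.

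DNAJB6, which keeps aggregating proteins and keratin in check, was read by 4 probe sets. The brightest had 2373, 1514 and 1539 in the Chinese Taihu sows, against 1188, 1369.6 and 1403 in the Large White sows. A second had 1102, 662 and 763 in the Chinese Taihu sows, against 455, 563 and 608 in the Large White sows. Another had 464, 411 and 481 in the Chinese Taihu sows, against 342, 340.0 and 394 in the Large White sows. These 3 sets were higher in every Chinese Taihu sow, with log2 differences of 0.43 (SE 0.23), 0.61 (SE 0.26) and 0.34 (SE 0.17), none past limma's unadjusted threshold. The remaining set overlapped and had the opposite direction, with 503, 416 and 768 in the Chinese Taihu sows and 582, 826 and 589.7 in the Large White sows. Without Chinese Taihu sow 1 the first 2 log2 differences were 0.21 and 0.40.

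**Figure D4:**
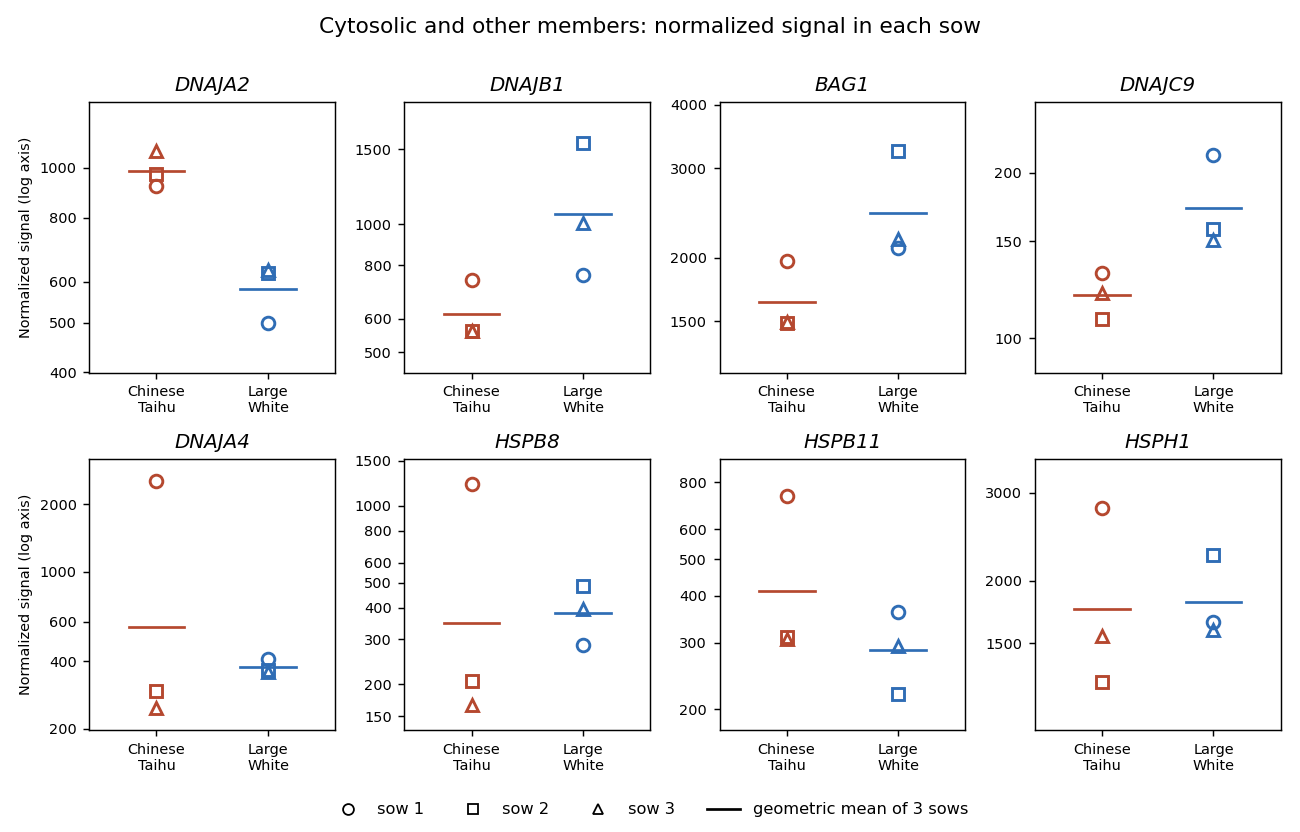
Normalized signal (y axis, log scale, a scale of its own in each panel) of 8 cytosolic and other members in each sow, Chinese Taihu left and Large White right, with a line at the geometric mean of 3 sows. DNAJA2 is higher and DNAJB1, BAG1 and DNAJC9 are lower in all 3 Chinese Taihu sows, whereas DNAJA4, HSPB8, HSPB11 and HSPH1 are highest in Chinese Taihu sow 1 (circle), for DNAJA4 at 2532.

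DNAJA4, a relative of DNAJA1 and DNAJA2, had the widest range of all members, 10.3-fold. Its signals were 2532, 296 and 247 in the Chinese Taihu sows, against 408, 367 and 359.7 in the Large White sows. The value of sow 1 was 6.21 times the next highest sow, and the other Chinese Taihu sows were below all Large White sows. The log2 difference was 0.59 (SE 0.87) and turned to -0.48 without Chinese Taihu sow 1. The second DNAJA4 set, near the filter, did not have this peak. It had 69.1, 49.0 and 52.4 in the Chinese Taihu sows, against 73.7, 66.8 and 57.6 in the Large White sows. DNAJA1, a farnesylated partner of HSPA8, had its lowest value in Chinese Taihu sow 1, with 1625, 6452 and 3850.1 in the Chinese Taihu sows, against 4184, 2684 and 3806 in the Large White sows. The log2 difference of DNAJA1 was -0.03 and turned to 0.51 without Chinese Taihu sow 1. A second, weaker DNAJA1 set was lowest in Large White sow 2 (203, against 241 in Chinese Taihu sow 1) and had a log2 difference of 0.22 (SE 0.38). The other 4 J proteins of the cytosol, DNAJB2, DNAJB4, DNAJB6 and DNAJC2, were highest in Chinese Taihu sow 1 in 3 cases, and DNAJC2 was highest in sow 3 of that breed.

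BAG1, an exchange factor that links HSP70 to the proteasome and to cell survival, had 1972, 1487 and 1497 in the Chinese Taihu sows, against 2088, 3243 and 2175 in the Large White sows. A second BAG1 set had 756, 709 and 707 in the Chinese Taihu sows, against 859, 1397 and 949.7 in the Large White sows. Both were lower in all 3 Chinese Taihu sows, and Large White sow 2 was the highest in both. The log2 differences were -0.58 (SE 0.24, limma adjusted p = 0.993) and -0.53 (SE 0.24), the second not past the unadjusted threshold. Without Large White sow 2 the first was -0.38. The other exchange factors, added after their values were seen, overlapped. BAG3, the stress-induced one that pairs with HSPB8, had 1133, 803 and 559.5 in the Chinese Taihu sows, against 849, 1084 and 731 in the Large White sows.

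The TRiC subunits, also given as a group after their values were seen, varied little. The 6 genes measured spanned 1.09-fold (CCT6A) to 1.42-fold (CCT8) over the sows, and their log2 differences lay between -0.18 and 0.12. CCT4 had 3599, 3988 and 4318 in the Chinese Taihu sows, against 3941, 4198 and 4429 in the Large White sows, and TCP1 had 1978, 2103 and 1796 in the Chinese Taihu sows, against 2549, 2373 and 1799 in the Large White sows. The breeds overlapped in all 6.

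Among the small heat shock proteins, HSPB8 stood out in a single sow. HSPB1 (HSP27), which guards actin filaments, had 7992, 10828 and 8130.0 in the Chinese Taihu sows, against 11044, 10278 and 9404 in the Large White sows (log2 difference -0.20, SE 0.15, and -0.12 without Chinese Taihu sow 1). HSPB8, the BAG3 partner in removing damaged filament proteins, had 1219.6, 206 and 165 in the Chinese Taihu sows, against 286, 484 and 395 in the Large White sows. For HSPB8, Chinese Taihu sow 1 was 2.52 times the next highest and the other Chinese Taihu sows were lowest, while HSPB1 had no sow apart. The log2 difference of HSPB8 was -0.13 with Chinese Taihu sow 1 and -1.04 without it. HSPB2 had 403, 275 and 194 in the Chinese Taihu sows, against 247, 201 and 229 in the Large White sows. HSPB6, a muscle relaxation protein, had 306, 255 and 192 in the Chinese Taihu sows, against 249.6, 283 and 257 in the Large White sows. Both were highest in Chinese Taihu sow 1, and HSPB7, a heart and muscle form, was not, with 272, 349 and 242 in the Chinese Taihu sows, against 346, 262 and 221 in the Large White sows. CRYAB, a lens and muscle small heat shock protein outside the rule that was chosen after its values were seen, had 1165, 319 and 212 in the Chinese Taihu sows, against 335, 611 and 399 in the Large White sows. Of the 6 smooth muscle markers, 4 were highest in Chinese Taihu sow 1 too, and CNN1 and DES are given here after their values were seen. CNN1 had 3979, 1062 and 472 in the Chinese Taihu sows, against 665, 1528 and 1826 in the Large White sows. DES had 853, 212 and 119 in the Chinese Taihu sows, against 186, 208 and 402 in the Large White sows. ACTA2 was lowest in Chinese Taihu sow 1. TAGLN was highest in Large White sow 3, with 4501, 2935 and 1971 in the Chinese Taihu sows, against 1907, 4613 and 4717 in the Large White sows. The list level of the 6 smooth muscle markers was 0.39, -0.04 and -0.85 in the Chinese Taihu sows, against -0.61, 0.13 and 0.27 in the Large White sows. The part of these cells in the HSPB values was not tested.

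Most of the mitochondrial chaperones named here stood high in the same pair of sows, 1 of each breed. HSPA9 (mortalin), the HSP70 that pulls proteins into mitochondria, had 2664, 5285 and 3101 in the Chinese Taihu sows, against 5538, 3399 and 3047 in the Large White sows. HSPD1 (HSP60), the chaperonin, had 3066, 5981 and 3324 in the Chinese Taihu sows, against 5275, 3019 and 3598 in the Large White sows. Its lid HSPE1 (HSP10) had 3932, 7032 and 3858 in the Chinese Taihu sows, against 6503, 4502 and 4535 in the Large White sows. In all 3, Chinese Taihu sow 2 and Large White sow 1 stood above the other 4 sows. DNAJA3, the J protein that starts the HSPA9 cycle, had 651, 1005 and 544 in the Chinese Taihu sows, against 1048, 587 and 524 in the Large White sows. DNAJC11, a J protein tied to the cristae, had 557, 847 and 537 in the Chinese Taihu sows, against 1041, 543 and 558 in the Large White sows, with the same 2 sows highest as for DNAJA3. DNAJC19, a J protein of the import motor, did not follow, with 507, 381 and 315 in the Chinese Taihu sows, against 397, 331 and 433 in the Large White sows.

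Chinese Taihu sow 2 and Large White sow 1 were the 2 highest arrays in 5 of the 6 mitochondrial genes, against 17.5% of all tested genes. This pattern was noticed in these values and is described without a test. By probe set, where 1 gene can be counted more than once, it was 8 of 9, against 15.6% of all tested probe sets. Without Chinese Taihu sow 1 it was again 8 of 9, against 20.4%. In the cytosol it was 7 of 56 probe sets and in the ER 1 of 29. The mitochondrial list level minus the cytosolic one was -0.06, 0.73 and -0.12 in the Chinese Taihu sows, against 0.66, -0.13 and 0.02 in the Large White sows. The breed medians were close, with a median log2 difference of -0.04 over the 6 genes, a range from -0.13 to 0.05, and a median of 0.03 over all 9 probe sets. Left out in turn, the sows moved this median between -0.29 (without Chinese Taihu sow 2) and 0.17 (without Large White sow 1).

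**Figure D5:**
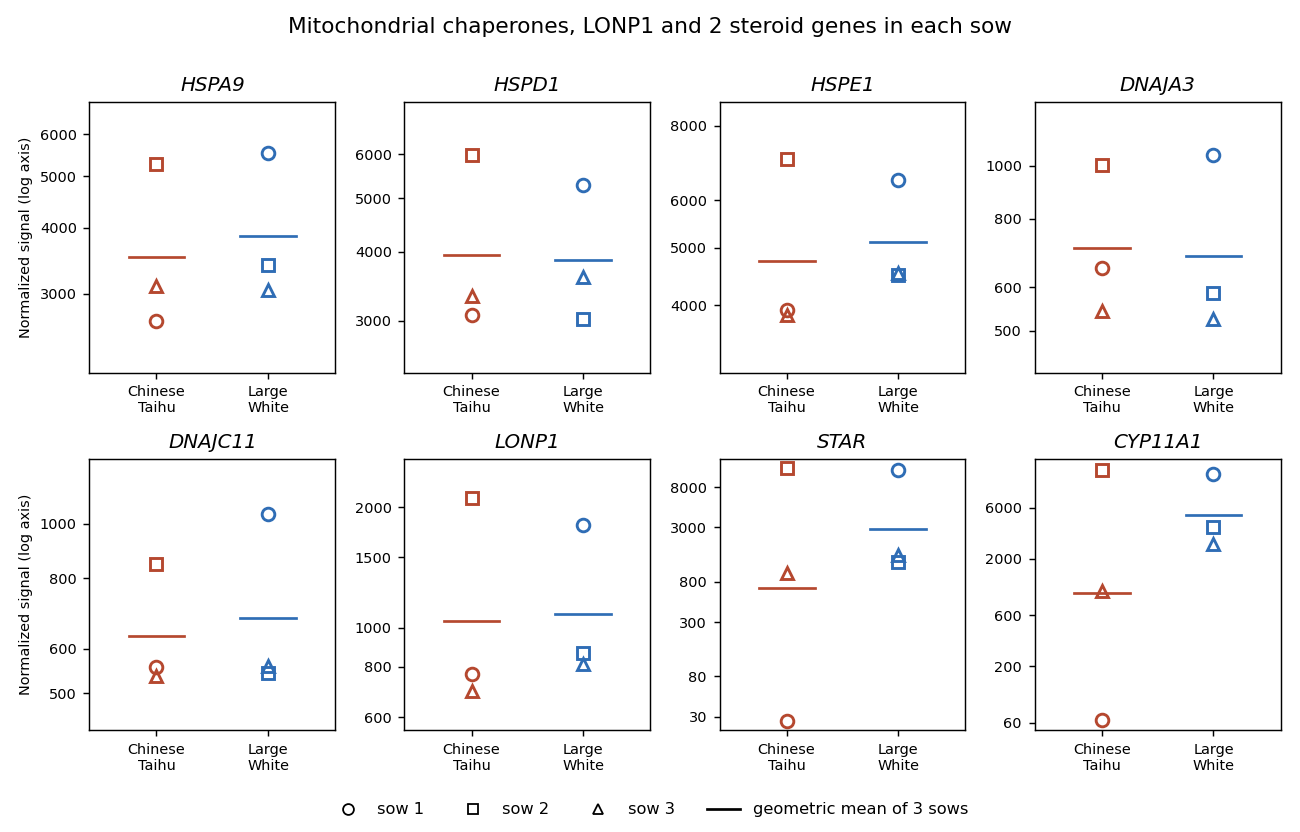
Normalized signal (y axis, log scale, a scale of its own in each panel) of 5 mitochondrial chaperones, the mitochondrial protease LONP1 and the steroid genes STAR and CYP11A1 in each sow, Chinese Taihu left and Large White right, with a line at the geometric mean of 3 sows. Chinese Taihu sow 2 (square) and Large White sow 1 (circle) are the highest points of every panel, for HSPD1 at 5981 and 5275. The choice of panels fixed this. DNAJC19 and INSL3, which did not have the pattern, are not shown, and LONP1 is from the 3 of 7 genes outside the rule that had it.

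Other mitochondrial folding genes did so in part. Of 7 such genes outside the rule, 3 had Chinese Taihu sow 2 and Large White sow 1 as the highest arrays, named here after their values were seen, namely GRPEL1, the exchange factor of HSPA9, TIMM44, its anchor at the import channel, and LONP1, a protease of the matrix. LONP1 had 768, 2105 and 695 in the Chinese Taihu sows, against 1805, 866 and 815 in the Large White sows. The same pair of sows was high in steroid genes, which were chosen here from the 7 theca and steroid markers after their values were seen. CYP17A1, HSD3B1 and NR5A1 of that list also had these 2 sows highest. INSL3 of that list did not, with 48.5, 3047 and 858 in the Chinese Taihu sows, against 1121, 1275 and 1725 in the Large White sows. STAR, which carries cholesterol into mitochondria for steroid synthesis, had 27.0, 12624 and 982 in the Chinese Taihu sows, against 12051, 1304 and 1516 in the Large White sows. CYP11A1, which cleaves the cholesterol side chain inside mitochondria, had 63.9, 13519.6 and 1004 in the Chinese Taihu sows, against 12210.2, 3982 and 2776 in the Large White sows. SCARB1, the receptor that takes up cholesterol from lipoproteins, had 299, 10077 and 511 in the Chinese Taihu sows, against 10204, 1378 and 1048 in the Large White sows. These genes spanned a far wider range than the chaperones, and the part of a steroid-making cell type or stage in the chaperone values was not tested. Among the 7 genes, TRAP1, the HSP90 of mitochondria (log2 difference 0.55, SE 0.41, and 0.11 without Large White sow 2), and TOMM22, an import receptor (-0.22, SE 0.15), had the smallest limma p, and none passed 0.05.

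Of the 8 remaining genes, DNAJC9, a J protein of the nucleus that also carries histones, was lower in all 3 Chinese Taihu sows. It had 132, 108 and 121 in the Chinese Taihu sows, against 216, 158 and 151 in the Large White sows. The log2 difference was -0.53 (SE 0.19, limma adjusted p = 0.993), and -0.37 without Large White sow 1. HSPB11, a part of the transport trains that build cilia, had 737, 309.7 and 306 in the Chinese Taihu sows, against 362, 219.7 and 294 in the Large White sows. For HSPB11, Chinese Taihu sow 1 was 2.03 times the next highest, and it was also the sow with all 5 motile cilium markers highest, such as the cilium gene ROPN1L at 7357, 74.8 and 99.0 in the Chinese Taihu sows, against 87.9, 79.3 and 709 in the Large White sows. The part of ciliated cells in it was not tested. DNAJC6 (auxilin), which strips clathrin from vesicles, had 88.0, 483 and 246 in the Chinese Taihu sows, against 218, 151 and 226 in the Large White sows, a range of 5.49-fold without a breed pattern.

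Genes of the same pathways that the rule does not name were counted for comparison. Of 24 measured ER folding genes outside the rule, 0 passed at an adjusted p under 0.05 and 1 at the unadjusted threshold, with a median log2 difference of -0.24 and 7 positive. That median was -0.10 without Chinese Taihu sow 1 and -0.14 without Large White sow 2. Their list level was -0.34, 0.05 and -0.09 in the Chinese Taihu sows, against 0.03, 0.19 and 0.01 in the Large White sows. Chinese Taihu sow 1 was the lowest in 11 of the 24, Large White sow 1 in 6 and Chinese Taihu sow 3 in 5. Over all tested genes Chinese Taihu sow 1 was the lowest in 24.2%. The gene past the unadjusted threshold was RCN1, a calcium-binding protein of the ER, with 788, 1004 and 1043 in the Chinese Taihu sows, against 1745, 2126 and 2236 in the Large White sows. All Chinese Taihu sows were lower (log2 difference -1.11, SE 0.20, limma adjusted p = 0.617), and the value was -0.98 to -1.22 with any 1 sow left out. CRELD2, an ER stress protein, followed with 526, 796 and 618 in the Chinese Taihu sows, against 1332, 1572 and 695 in the Large White sows (-0.83, SE 0.35). SERPINH1 (HSP47), the chaperone of collagen, and HYOU1, the exchange factor of HSPA5, were chosen after their values were seen. SERPINH1 had 2286, 6734 and 5756 in the Chinese Taihu sows, against 8565, 7321 and 7050.3 in the Large White sows, without overlap. HYOU1 had 377, 941 and 396 in the Chinese Taihu sows, against 1180.1, 827 and 529 in the Large White sows, with overlap.

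Of 11 ER stress and degradation genes, 1 passed at an unadjusted p of at most 0.05 and 0 after adjustment (median log2 difference -0.17). Without Large White sow 2 that median turned to 0.14. ATF4, a transcription factor of the stress response, had 2631, 2258 and 3377 in the Chinese Taihu sows, against 3380.4, 4918 and 3891 in the Large White sows, lower in all Chinese Taihu sows though by little for sow 3 (log2 difference -0.56, SE 0.22, limma adjusted p = 0.993). XBP1, the factor spliced by IRE1, had 5066, 4770.3 and 5528 in the Chinese Taihu sows, against 4604, 4368 and 3735 in the Large White sows, all Chinese Taihu sows being higher (0.28, SE 0.14). The ATF4 difference kept an unadjusted p of at most 0.05 only without Chinese Taihu sow 3 or Large White sow 1.

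In the cytosol, 0 of 14 cochaperones outside the rule passed either threshold (median log2 difference -0.16). The smallest p belonged to TOMM34, which links HSP70 and HSP90, with 348, 297 and 331 in the Chinese Taihu sows, against 445, 391 and 399 in the Large White sows (-0.34, SE 0.17), and next to CDC37, which brings kinases to HSP90 (-0.32, SE 0.19). TOMM34 was lower in all Chinese Taihu sows. Of 11 prefoldin and tubulin folding genes, 1 passed at an unadjusted p of at most 0.05 and 0 after adjustment (median -0.11). It was PFDN6, a subunit of prefoldin, which hands actin and tubulin to TRiC, with 779, 1061 and 625 in the Chinese Taihu sows, against 2615, 1479.8 and 1314 in the Large White sows. All Chinese Taihu sows were lower (log2 difference -1.10, SE 0.34, limma adjusted p = 0.993), though the unadjusted call was lost without Chinese Taihu sow 3, and PFDN1 of the same complex had a log2 difference of -0.34 (SE 0.19). Of 3 genes of the heat shock factor group, HSF1, HSF2 and HSBP1, 0 passed either threshold. HSF1, the main inducer of heat shock genes, had 642, 467 and 468 in the Chinese Taihu sows, against 571, 517 and 480.1 in the Large White sows, with Chinese Taihu sow 1 highest. HSF2 had a log2 difference of 0.24 (SE 0.27) and HSBP1, which binds HSF1, of -0.15 (SE 0.22).

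Of the 59 genes, 26 were read by several probe sets. In 10 of them all sets had the same direction between the breeds and in 16 the directions were mixed, with a median spread of 0.20 and a largest spread of 0.92 (CANX) on the log2 scale. The median range over the 6 sows was 1.67-fold for the 103 member probe sets, 1.64-fold for those of the ER, 1.59-fold in the cytosol and 1.98-fold in mitochondria, against 1.75-fold over all tested probe sets.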

How the data were processed

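The deposited table held 1 normalized signal intensity per probe set and array, on a linear scale. The authors made these intensities with MAS5 (version 2.3.1), scaled each array to a common target and normalized them by the invariant set method of dChip. After the 188 control probe sets had been removed and signals raised to at least 1, log2 signals of probe sets above 50 on at least 3 arrays were fitted by breed in limma 3.58.1 (R 4.3.3), with a variance trend, 2-sided, and Benjamini-Hochberg adjustment over 19196 probe sets. The SD and SE come from 3 separate sows a breed, and the number of arrays limits precision. List counts and levels were computed in Python 3.11.15 (pandas 2.3.3, numpy 2.4.6), without tests, and plotted with matplotlib 3.10.9. The scripts were tested on simulated data.

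Gene symbols were read from GEO's annotation of the array's probe sets. Of 104 member probe sets, 101 had a gene ID in RefSeq, and 0 symbols differed. Compartments, roles, pathway lists and marker lists were assigned by symbol from general knowledge. Members and lists were chosen with earlier results of these data known. Named genes were all members of the HSP70, HSP110, HSP90, lectin, isomerase, small heat shock and mitochondrial groups, the 6 member probe sets with the smallest limma p in each direction, the 10 with the widest range and 2 genes per pathway list, while others were chosen after values were seen. Alternatives were quantile and median scaling, other filters, floors and offsets, other limma settings, a replicate block, the methods' t-test and each sow left out. Promoter and protein sequences and genome positions were not used here.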

Additional observations from a re-analysis of the deposited data

How the results depend on the processing

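Under every alternative run, 0 members passed an adjusted p under 0.05. The number lower in Chinese Taihu at an unadjusted p of at most 0.05 was 3 and became 1 with the replicate number as a block, and the number higher was 2 and became 4 by the methods' t-test. With each sow left out these counts ran from 0 to 4 and from 1 to 3. The median log2 difference of cytosolic members (-0.08) was -0.042 after quantile normalization, -0.017 over every probe set, and -0.10 to 0.012 with each sow left out. Genes at an unadjusted p of at most 0.05 numbered 1 to 4 for ER folding outside the rule, 0 to 1 for ER stress and degradation (0 also after quantile normalization), 0 to 1 for cochaperones and 0 to 1 for prefoldin and tubulin folding with each sow left out. The medians then ran from -0.25 to 0.14 for ER stress and degradation and from -0.21 to -0.047 for prefoldin. Of 55 probe sets named by rule, 20 turned direction with at least 1 sow left out, 7 of them without Chinese Taihu sow 1. With each sow left out, their log2 differences ran as follows, by each gene's brightest probe set: HSPA13 (-0.27 to 0.26), CALR (-0.14 to 0.27), PDIA6 (-0.24 to 0.0075), HSPH1 (-0.38 to 0.20), HSPA14 (-0.17 to 0.070), HSPA2 (-0.23 to 0.28), HSPA6 (-0.37 to 0.39), HSPA8 (-0.26 to 0.022), DNAJA1 (-0.48 to 0.51), DNAJA4 (-0.48 to 1.20), HSPB6 (-0.25 to 0.087), HSPB7 (-0.084 to 0.24), HSPB8 (-1.04 to 0.40), DNAJA3 (-0.20 to 0.35), DNAJC11 (-0.32 to 0.20), DNAJC19 (-0.15 to 0.19), HSPA9 (-0.42 to 0.13), HSPD1 (-0.27 to 0.26), HSPE1 (-0.39 to 0.070) and DNAJC6 (-0.40 to 0.82). Another alternative turned 5, namely array weights for HSPA13 (0.064), HSPA2 (-0.012), DNAJC11 (0.00800) and DNAJA1 (0.23) and quantile normalization for HSPH1 (0.036). The cause of these shifts was not tested. The other values from alternatives, 215 of counts, medians and levels of lists and 836 of single genes, kept their direction and their side of the adjusted threshold, or moved by less than the spread between sows. Same-numbered sows of the breeds had deviations that correlated at -0.17, -0.14 and 0.27, so the numbers do not pair them, and the block left the adjusted calls of members at 0, while those of the whole array, 4 without it, numbered 0 with the block and by the methods' t-test, 11 with array weights and 2 to 4 with each sow left out. With 3 sows a breed, 1 farm each and 1 sow unlike the rest, small differences were not detectable, and a probe set near a signal of 50 is measured with little precision.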
